A study of Mus musculus with 8 samples.

Results

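The 8 genes described here encode transcription factors, several of which are known for directing blood progenitors into granulocytes, monocytes and dendritic cells. They are the 5 C/EBP genes Cebpa, Cebpb, Cebpd, Cebpe and Cebpg, together with Spi1 (which encodes PU.1), Irf8 and Gfi1. They were taken by symbol from the 47311 genes whose transcripts could be matched in the deposited tables, and all 8 were matched and passed the filter on low counts. RNA with polyA tails had been sequenced from Lin-Sca1+Kit+ (LSK) bone marrow cells, the gate that holds blood stem cells and multipotent progenitors, of 8 mice. The 4 groups had 2 mice each: young Asxl2 WT, young Asxl2 KO, old Asxl2 WT and old Asxl2 KO, where young is 8 to 12 weeks and old is more than 1 year. Each of the 4 litters gave 1 mouse per genotype, and litters 1 (old) and 3 (young) are labelled batch 1 while litters 2 (old) and 4 (young) are labelled batch 2. Asxl2 encodes a chromatin protein that works with the deubiquitinase Bap1. How the gene was disrupted, and in which cells, is not given in the sources used here.

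PU.1 is an ETS-family activator needed from the earliest myeloid step onward, and Irf8 binds DNA with it to favour monocytes and dendritic cells. C/EBP proteins bind DNA as leucine-zipper dimers: C/EBPα starts granulocyte and monocyte commitment, C/EBPβ and C/EBPδ act in emergency and inflammatory output, and C/EBPε completes granule formation. C/EBPγ lacks a strong activation domain and pairs with the others and with Atf4. Gfi1 is a zinc-finger repressor that favours neutrophils over monocytes and restrains the cycling of blood stem cells.

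The libraries held 45737972 to 80388500 estimated counts. Asxl2 RNA was 4.63 to 5.63 TPM (a transcript level scaled for length and depth) in the 4 KO libraries and 23.0 to 30.8 TPM in the 4 WT libraries, and the genotypes did not overlap. Markers of the gate and of stem or progenitor cells summed to 1818 to 3107 TPM in every library, with none absent. Markers of other cells were also present: the summed level of 9 mature neutrophil genes ran from 9.38 to 1572 TPM and that of 8 erythroid genes from 93.7 to 1278 TPM. The 2 mice of litter 1, both old, were the only ones with Xist RNA above 0.1 TPM, so the old group mixes mice that differ in this RNA. In bulk RNA, fewer cells of a type and less RNA per cell cannot be told apart.

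Spi1 was the most abundant of the 8 RNAs in every library, at a mean of 260.3 TPM over the 8 libraries. Cebpb followed at 104 TPM, Irf8 at 55.1 TPM, Cebpg at 53.7 TPM, Gfi1 at 43.8 TPM and Cebpd at 28.9 TPM. Cebpa, at 5.796 TPM, and Cebpe, at 4.32 TPM, were the least abundant. The ranges over libraries did not overlap between Spi1 and Cebpb, nor between Cebpd and Cebpa. Each of the other neighbours in this order (Cebpb and Irf8, Irf8 and Cebpg, Cebpg and Gfi1, Gfi1 and Cebpd, Cebpa and Cebpe) had overlapping ranges.

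**Figure D1:**
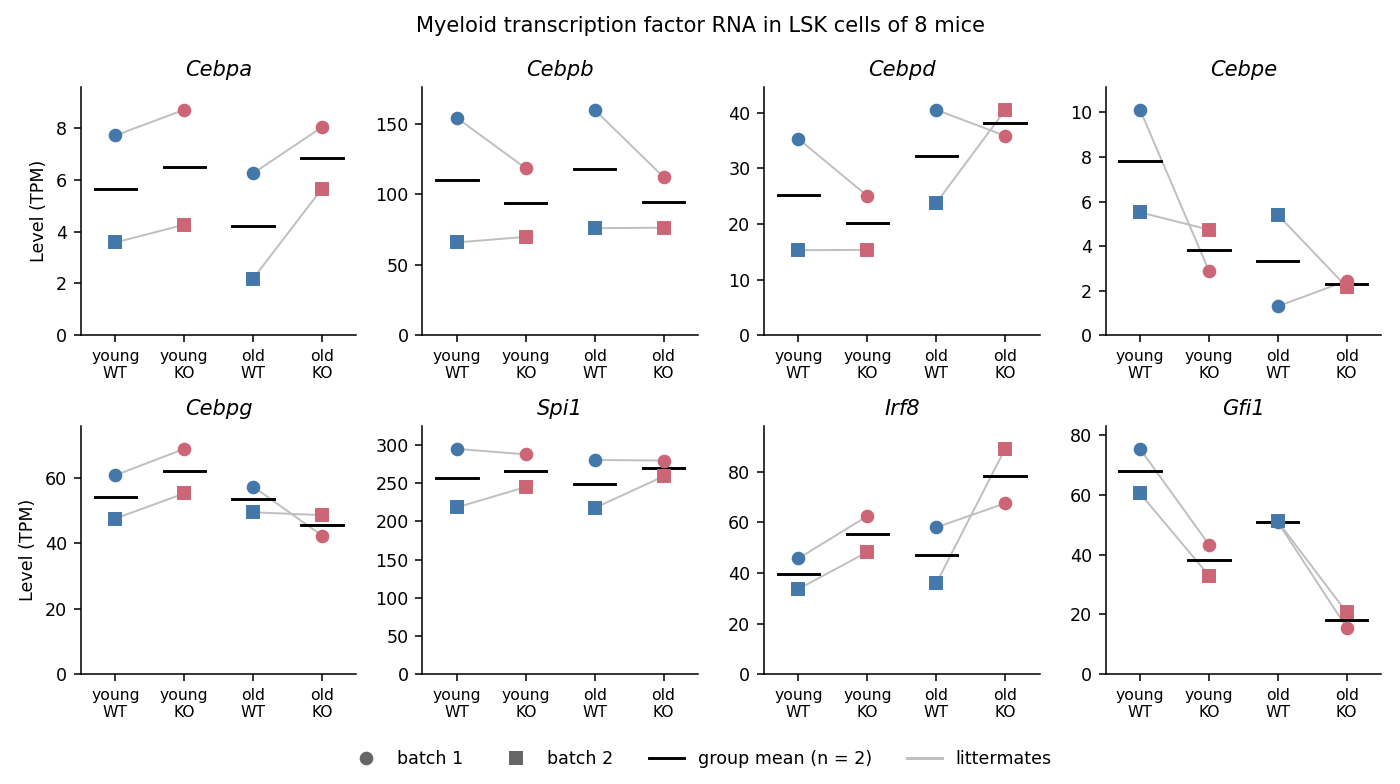
RNA level (TPM, vertical axis from 0) of each of the 8 genes in the 8 libraries, by group (horizontal axis); circles are batch 1, squares batch 2, black bars group means of 2 mice, and grey lines join littermates. Gfi1 lay at 15.6 to 43.4 TPM in the KO libraries and 50.9 to 75.4 TPM in the WT libraries, and Irf8 was higher in the KO mouse of each of the 4 litters.

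In Asxl2 KO cells the repressor gene Gfi1 was lower and Irf8 was higher than in WT cells, while the PU.1 gene and the C/EBP genes did not pass the test over both ages. This comparison asks what loss of Asxl2 does to the level of each gene with age and batch held in the model. The threshold was an adjusted p of 0.05 in edgeR's quasi-likelihood test over 25543 genes. 1 of the 8 genes passed upward and 1 downward, against 9.98% of all genes tested that passed in either direction. Of all 25543 genes, 7445 had an unadjusted p under 0.05 and DESeq2 called 5288. The median log2 fold change of the 8 was 0.07, against 0.10 over all genes.

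Gfi1 had 15.6 and 20.7 TPM in the old KO libraries and 33.0 and 43.4 TPM in the young KO libraries. In WT it had 50.9 and 51.1 TPM in the old and 60.5 and 75.4 TPM in the young libraries. Every KO library was below every WT library, which held for 8.08% of all genes tested. The means were 28.2 ± 12.5 TPM (SD, n = 4) in KO and 59.4 ± 11.5 TPM (SD, n = 4) in WT. The edgeR log2 fold change was -0.99 ± 0.19 (SE), with an adjusted p of 0.0165. Within litters the KO to WT ratio of TPM was 0.307 in litter 1 and 0.405 in litter 2, both old, and 0.575 in litter 3 and 0.546 in litter 4, both young. KO was thus lower in each of the 4 litters, as it was for 24.2% of all genes tested.

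The fall of Gfi1 had much the same size within batch 1 (log2 -1.07, adjusted p = 0.0475) and within batch 2 (log2 -0.98, adjusted p = 0.000498), fits that each rest on 4 libraries. The call was lost without old KO replicate 2 (adjusted p = 0.062), without old WT replicate 2 (0.0725) or without litter 1 (0.0694), with log2 fold changes of -0.98, -0.83 and -0.89. Levels also fell off with transcript length more steeply in KO than in WT libraries. The slope of log2 TPM on log2 effective length was -0.882 and -0.765 in old KO, -0.611 in each young KO library and -0.572 to -0.548 in 3 of the WT libraries, so that young KO was close to these. Young WT replicate 1 stood apart at -0.266, and without it Gfi1 was at -1.21 (adjusted p = 0.0189). The markers of the sorted cells themselves moved with genotype, since 6 of the 10 gate and stem or progenitor genes passed and all 10 had an unadjusted p under 0.05. Of all genes tested, 9.98% passed and 7445 of 25543 had an unadjusted p under 0.05. Ly6a (log2 0.90), which encodes Sca1, Slamf1 (0.84) and Cd48 (0.72) rose, and Kit (-0.88), Flt3 (-0.66) and Mecom (-0.85) fell, with edgeR adjusted p values of 0.0213 to 0.0438 (all but Kit and Flt3 named after their values were seen). Their summed level was 1818 to 2295 TPM in KO and 2071 to 3107 TPM in WT. Markers of other lineages moved as well: 6 of 8 erythroid markers fell (summed 93.7 to 609 TPM in KO, 277 to 1278 TPM in WT), and so did 5 of 8 mast, basophil and eosinophil markers (549.9 to 917 TPM in KO, 71.0 to 2020 TPM in WT). The part of these shifts in the Gfi1 and Irf8 differences was not tested. With the length trend removed per library, Gfi1 stood at log2 -0.97 (adjusted p = 0.0148) and Irf8 at 0.75 (adjusted p = 0.0183).

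Irf8 had 67.5 and 89.0 TPM in the old KO and 48.3 and 62.5 TPM in the young KO libraries. In WT it had 58.0 and 35.9 TPM in the old and 33.7 and 45.8 TPM in the young libraries. Old WT replicate 1 was above young KO replicate 1, so the genotypes overlapped, but within each batch both KO libraries were above both WT libraries. How many of all genes keep this order within batches was not counted. The means were 66.8 ± 16.9 TPM (SD, n = 4) in KO and 43.3 ± 11.1 TPM (SD, n = 4) in WT. The edgeR log2 fold change was 0.76 ± 0.15 (SE), with an adjusted p of 0.0187. KO was higher in each of the 4 litters, with ratios of 1.16, 2.48, 1.36 and 1.43 in litters 1 to 4. KO was higher in all 4 litters for 12.2% of all genes tested.

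The Irf8 call was less firm than that of Gfi1, and 9 of its 19 alternatives ended it. It was lost without old KO replicate 2 (log2 0.60, adjusted p = 0.0848), old WT replicate 1 (0.75, 0.0571), old WT replicate 2 (0.64, 0.0774), young WT replicate 1 (0.72, 0.0575) or litter 1 (0.77, 0.106). Within batch 1 it was 0.54 (adjusted p = 0.666) and within batch 2 0.88 (adjusted p = 0.00145). Markers of plasmacytoid and classical dendritic cells, where Irf8 is also high, summed to 130.3 to 259 TPM in KO and 108 to 154 TPM in WT. Most of this sum was Bst2, with 123 to 253 TPM in KO and 100 to 143 TPM in WT. edgeR called 0 of these 6 marker genes, where 9.98% of all genes tested passed. Of the 6, 3 had an unadjusted p under 0.05 (7445 of all 25543 genes) and DESeq2 called 3 (5288 of all genes). Ccr9 was lower in every KO library (1.75 to 3.74 TPM) than in any WT library (3.77 to 8.74 TPM). That order held for 8.08% of all genes tested. Siglech, Xcr1, Clec9a and Itgax overlapped between the genotypes, and these 6 genes were named after their values were seen. The part of such cells in the Irf8 difference was not tested.

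Spi1 had 279.7 and 259 TPM in the old KO, 245 and 288 TPM in the young KO, 280.4 and 218 TPM in the old WT and 218 and 295 TPM in the young WT libraries. The genotypes overlapped, and every batch 1 library was above every batch 2 library. The log2 fold change of KO over WT was 0.26 ± 0.12 (SE; edgeR adjusted p = 0.19), against the median of 0.10 over all genes.

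Cebpa had 8.03 and 5.65 TPM in the old KO and 4.26 and 8.70 TPM in the young KO libraries. In WT it had 6.25 and 2.18 TPM in the old and 3.58 and 7.71 TPM in the young libraries. KO and WT overlapped, since here too every batch 1 library was above every batch 2 library. The KO mouse was above its WT littermate in each of the 4 litters (ratios of 1.29, 2.59, 1.13 and 1.19), as it was for 12.2% of all genes tested. The log2 fold change was 0.70 ± 0.22 (SE), and it missed the threshold in edgeR (adjusted p = 0.0632). DESeq2 called it at the same size (log2 0.70, adjusted p = 0.00865). Within batch 1 the value was 0.46 (adjusted p = 0.852) and within batch 2 0.85 (adjusted p = 0.0479). These levels rest on 208 to 1303 estimated counts a library.

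Cebpb had 112 and 76.3 TPM in the old KO, 69.8 and 119 TPM in the young KO, 160.2 and 76.0 TPM in the old WT and 65.9 and 154 TPM in the young WT libraries. The genotypes overlapped, and every batch 1 library was above every batch 2 library. This split by batch was seen in 3 of the 8 genes (Spi1, Cebpa and Cebpb), against 1.71% of all genes tested. With batch in the model the KO to WT log2 fold change was -0.06 ± 0.13 (SE; edgeR adjusted p = 0.793).

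Cebpd had 35.8 and 40.4 TPM in the old KO, 15.3 and 25.0 TPM in the young KO, 40.5 and 23.8 TPM in the old WT and 15.3 and 35.3 TPM in the young WT libraries. The genotypes overlapped throughout. The KO to WT log2 fold change was 0.17 ± 0.23 (SE; edgeR adjusted p = 0.66).

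Cebpg had 42.3 and 48.5 TPM in the old KO, 55.2 and 68.8 TPM in the young KO, 57.3 and 49.4 TPM in the old WT and 47.5 and 60.7 TPM in the young WT libraries. Its means were equal within the spread, at 53.7 ± 11.3 TPM (SD, n = 4) in KO and 53.7 ± 6.29 TPM (SD, n = 4) in WT. The log2 fold change was -0.02 ± 0.13 (SE; edgeR adjusted p = 0.935).

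Cebpe, the late granulocyte factor, had 2.44 and 2.17 TPM in the old KO, 4.74 and 2.89 TPM in the young KO, 1.30 and 5.41 TPM in the old WT and 5.51 and 10.1 TPM in the young WT libraries. The 2 old WT mice lay far apart, and the genotypes overlapped. The log2 fold change was -0.68 ± 0.46 (SE; edgeR adjusted p = 0.344). The summed level of the 9 mature neutrophil markers was 273 and 63.1 TPM in old KO, 1572 and 163 TPM in young KO, 9.38 and 1086 TPM in old WT and 654 and 945 TPM in young WT. Both Cebpe and these markers were lowest in old WT replicate 1, which is also the WT mouse of litter 1. The part of such cells in the Cebpe values was not tested.

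**Figure D2:**
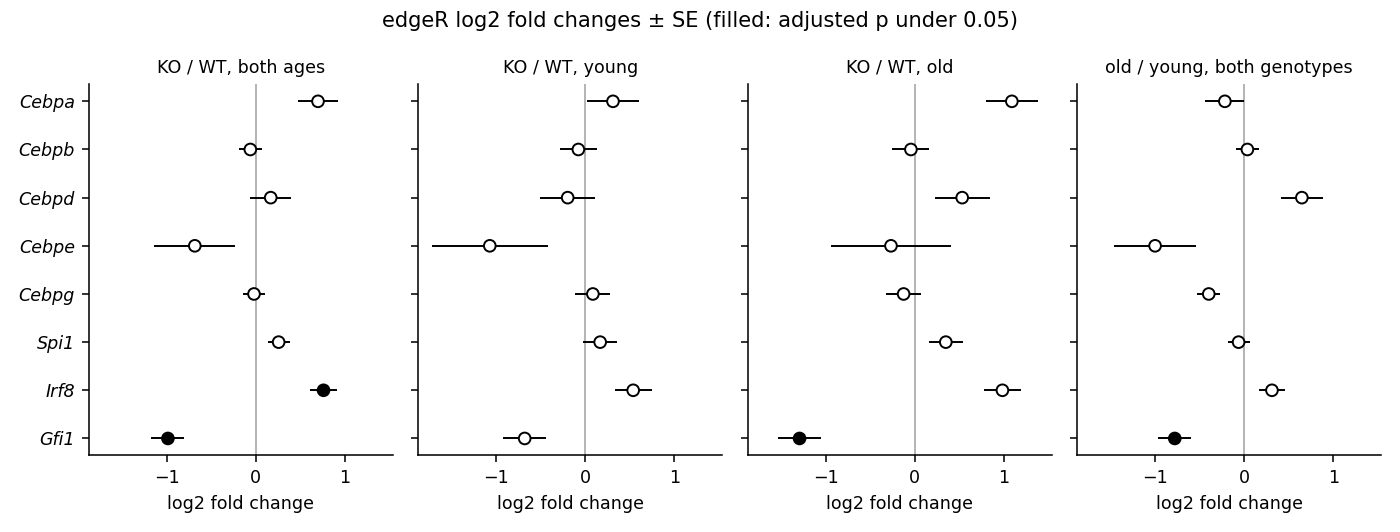
edgeR log2 fold change (horizontal axis) with its SE (bars) of each gene (vertical axis) for KO over WT at both ages, in young and in old mice, and for old over young mice; filled points passed an adjusted p of 0.05. Gfi1 passed in 3 of the 4 panels and Irf8 only for KO over WT at both ages (log2 0.76).

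Split by age, the genotype difference of Gfi1 passed in old mice alone, and no member passed in young mice. In old mice Gfi1 fell by 1.29 ± 0.24 (SE) on the log2 scale (edgeR adjusted p = 0.0462), where 0.65% of all genes tested passed. A fit with litter as a block left 2 residual degrees of freedom instead of 3. Within an age the litters are also the batches, so that fit does not isolate the pairing of littermates. With litter as a block the value was -1.29 and the adjusted p 0.0804, and the call was lost. It also ended without each of the 4 old libraries in turn (adjusted p from 0.0621 to 0.201), without litter 1 (0.419) and without the batch term (0.163). Irf8 stood at 0.98 ± 0.21 (SE; adjusted p = 0.0581) and Cebpa at 1.09 ± 0.29 (SE; adjusted p = 0.08) in old mice, and DESeq2, which called 3238 of all genes there, called both (adjusted p = 0.000609 and 0.00166).

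In young mice Gfi1 was at -0.68 ± 0.24 (SE; edgeR adjusted p = 0.483) and Irf8 at 0.54 ± 0.21 (SE; adjusted p = 0.505), where 0.0626% of all genes tested passed. Of the 8 genes, edgeR called 0 in young mice (2 at an unadjusted p under 0.05, as had 2416 of all 25543 genes) and DESeq2 called 0 (391 of all genes). The difference between the ages was itself tested as a genotype by age interaction, which 0.00391% of all genes passed. Its log2 value was -0.61 ± 0.34 (SE) for Gfi1, 0.45 ± 0.29 for Irf8 and 0.78 ± 0.41 for Cebpa, each with an edgeR adjusted p of 1. None of the 8 had an unadjusted p under 0.05 for the interaction (505 of all genes did), and DESeq2 called 0 (7 of all genes). A genotype effect that differs with age was therefore not shown for any of the 8 genes with 2 mice a group.

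With age, Gfi1 was lower in old than in young cells, and none of the 8 genes passed upward. Over both genotypes, 1 of the 8 genes passed, against 13.9% of all genes tested, and the median log2 fold change of the 8 was -0.14, against 0.15 over all genes. Gfi1 was at 15.6 to 51.1 TPM in the 4 old and 33.0 to 75.4 TPM in the 4 young libraries, which overlapped because old WT was above young KO. Within each genotype both old mice were below both young mice, an order that was not counted over all genes. The log2 fold change of old over young was -0.78 ± 0.19 (SE; edgeR adjusted p = 0.0285).

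This call depended on the mice of litter 1, the only old mice of batch 1. Without them the ages are compared within batch 2 alone, so leaving out litter 1 and fitting batch 2 alone are not separate checks. The log2 fold change was -0.41 without litter 1. It was -1.15 within batch 1, and within batch 2, at -0.41, the call was lost. It was also lost without any 1 of 6 of the 8 libraries, the exceptions being old WT replicate 2 and young WT replicate 2 (adjusted p from 0.0515 to 0.12, log2 from -0.99 to -0.61). Markers moved with age too. Flt3, Kit, Cd34 and Hlf fell among the 10 gate and stem or progenitor genes and 0 rose (Cd34 and Hlf named after their values were seen), with the sum at 1818 to 2404 TPM in old and 2178 to 3107 TPM in young libraries. Of the 8 erythroid markers 5 fell (93.7 to 886 TPM in old, 295.5 to 1278 TPM in young libraries). Their part in the Gfi1 difference was not tested. Litter 1 differs from the other old litter in Xist RNA and in batch, and these cannot be told apart here.

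The C/EBP genes differed in direction with age, and none passed in edgeR. Cebpd had a mean of 35.1 ± 7.88 TPM (SD, n = 4) in old and 22.7 ± 9.54 TPM (SD, n = 4) in young cells (log2 0.65 ± 0.23 SE; edgeR adjusted p = 0.0755). Each old library was above the young library of the same genotype and batch, an order that was not counted over all genes. The log2 fold change of Cebpd was 0.24 within batch 1 (edgeR adjusted p = 0.65) and 1.06 within batch 2 (edgeR adjusted p = 0.0128). Cebpg was at 49.4 TPM in old and 58.1 TPM in young cells (log2 -0.40 ± 0.13 SE; edgeR adjusted p = 0.0571). DESeq2, which called 6665 of all 25543 genes, called both Cebpd (adjusted p = 0.0208) and Cebpg (adjusted p = 0.0268). Cebpe was at -1.0 ± 0.46 (SE; edgeR adjusted p = 0.137). With the length trend removed the value for Cebpg passed (log2 -0.54, adjusted p = 0.0347), as did that for Cebpe (log2 -1.35, adjusted p = 0.0374), while Cebpd stood at 0.24 (adjusted p = 0.412).

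Cebpa (-0.22), Cebpb (0.04), Spi1 (-0.06) and Irf8 (0.31) had old over young log2 fold changes with edgeR adjusted p values of 0.149 to 0.854. Within WT mice alone and within KO mice alone no member passed, and 0.0861% of all genes tested passed in each of these comparisons. At an unadjusted p under 0.05 there were 0 members in WT mice, against 3543 of all 25543 genes, and 4 in KO mice, against 6224. DESeq2 called 0 members in WT mice, against 373 of all genes, and 2 in KO mice, against 3371. In KO mice the values furthest from 0 were -1.09 ± 0.24 (SE; adjusted p = 0.109) for Gfi1 and 1.01 ± 0.31 (SE; adjusted p = 0.125) for Cebpd. In WT mice they were -1.42 for Cebpe (adjusted p = 0.37) and -0.61 for Cebpa (adjusted p = 0.366).

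Since C/EBP proteins pair with each other, the make-up of the family in each library was computed as each gene's share of the summed TPM of the 5 genes. Cebpb made up 44.1% to 60.3% of the family RNA, Cebpg 21.1% to 36.9%, Cebpd 10.3% to 23.3%, Cebpa 1.39% to 3.99% and Cebpe 0.49% to 4.0%. Cebpb held the largest share in all 8 libraries. The share of Cebpd was 17.8% and 23.3% in old KO, 15.3% and 15.2% in old WT, 10.3% and 11.2% in young KO and 11.1% and 13.2% in young WT, so every old library was above every young one. How many genes part by age in this way was not counted, and Cebpd itself did not pass with age (edgeR adjusted p = 0.0755). Cebpd has the shortest effective length of the 8 genes, at 909.5 bases. TPM fell off with length most steeply in old KO replicates 1 and 2 (slopes of -0.882 and -0.765). The length trend was not removed from the shares, and its part in them was not tested. The share of Cebpb was above 50% in each batch 1 library and below it in each batch 2 library. These shares describe RNA only, and no test was run on them.

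**Figure D3:**
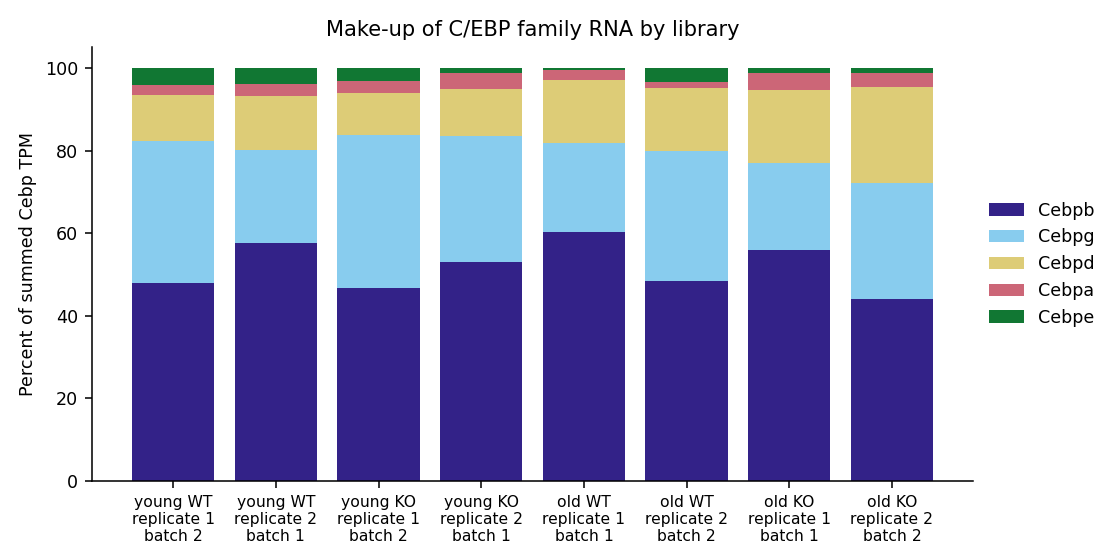
Share (percent, vertical axis) of each C/EBP gene in the summed TPM of the 5 genes, for the 8 libraries (horizontal axis, with group, replicate and batch). Cebpb made up 44.1% to 60.3% and Cebpd between 10.3% and 23.3%, with the higher Cebpd shares in the old libraries. The length trend of the libraries was not removed from the shares.

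The genes lie on 6 mouse chromosomes (mm10). Cebpa, at chr7:35119293-35121928 on the plus strand, has Cebpg 62719 bases away on the minus strand at chr7:35046422-35056573. The KO to WT log2 fold changes of this neighbouring pair were 0.70 and -0.02. Cebpb is at chr2:167688915-167690418, Spi1 at chr2:91082390-91115756, Cebpd at chr16:15887286-15891031, Cebpe at chr14:54710360-54712174, Irf8 at chr8:120736358-120756694 and Gfi1 at chr5:107716657-107726036. Exons of Cebpd share 562 bases with Spidr (16.4 to 45.2 TPM) and those of Cebpb 312 bases with Tmem189 (42.9 to 84.0 TPM), both on the opposite strand. Exons of Cebpa share 51 bases with the antisense gene Gm45091, whose 2.30 to 5.99 TPM was near the level of Cebpa itself. Exons of Gfi1 share 101 bases with the noncoding gene A430072P03Rik, which was at 1.14 to 3.90 TPM. Those of Cebpg share 4 bases with the antisense gene Gm45095 and 73 with Gm44836 on its own strand (0.885 to 8.08 TPM). Whether the libraries kept strand is not given in the sources used here, so reads from such shared bases could belong to either gene.

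Cebpb and Cebpe are annotated with 1 transcript each, and of the 2 annotated for Cebpd 1 was analysed here. For the others, the single-exon transcript Cebpa-201 carried 95.5% of Cebpa and Spi1-201 carried 85.2% of Spi1. Cebpg was mostly assigned to Cebpg-203, a transcript annotated as a retained intron, with 54.7% of its TPM. Where transcripts share exons, kallisto's split between them is an estimate.

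Gfi1 has transcripts from 3 annotated starts. The main start, at position 107725805 of chromosome 5, is shared by Gfi1-202 and Gfi1-203 and had 12.3, 16.9, 27.4 and 36.4 TPM in old KO 1, old KO 2, young KO 1 and young KO 2. It had 39.4, 40.6, 41.4 and 60.1 TPM in the WT libraries in the same order of age and replicate. The inner start at 107724343 had 1.26 to 4.45 TPM in KO and 5.21 to 9.70 TPM in WT, and the outer start at 107726036 had 1.20 to 5.0 TPM in KO and 5.21 to 9.35 TPM in WT. At each of the 3 starts every KO library was below every WT library. The gap was small at the outer start (highest KO 5.0, lowest WT 5.21 TPM) and at the inner start (4.45 and 5.21 TPM). Gfi1-202 (KO up to 25.2, WT down to 16.5 TPM) and Gfi1-203 (KO up to 13.4, WT down to 4.71 TPM) each overlapped between the genotypes. The split between transcripts is kallisto's estimate. At the level of genes, every KO library was below every WT library for 8.08% of all genes tested. No share was computed for transcripts.

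Irf8 was mostly assigned to the transcripts from its first base, position 120736358 of chromosome 8, which are nearly all Irf8-201. They had 39.7 and 54.7 TPM in old KO, 34.9 and 35.1 TPM in young KO, 34.1 and 25.3 TPM in old WT and 27.4 and 20.8 TPM in young WT. Every KO library was above every WT library here, unlike for the gene as a whole, though by little (lowest KO 34.9, highest WT 34.1 TPM). At the level of genes that order held for 1.8% of all genes tested, and no share was computed for transcripts. The split between this start and the others is kallisto's estimate. An inner start at 120738639, inside the gene, had 12.0, 12.0, 1.91 and 10.5 TPM in old KO 1, old KO 2, young KO 1 and young KO 2 and 8.79, 1.41, 0.0 and 13.7 TPM in the WT libraries in the same order. Its 3 lowest values were all in batch 2.

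**Figure D4:**
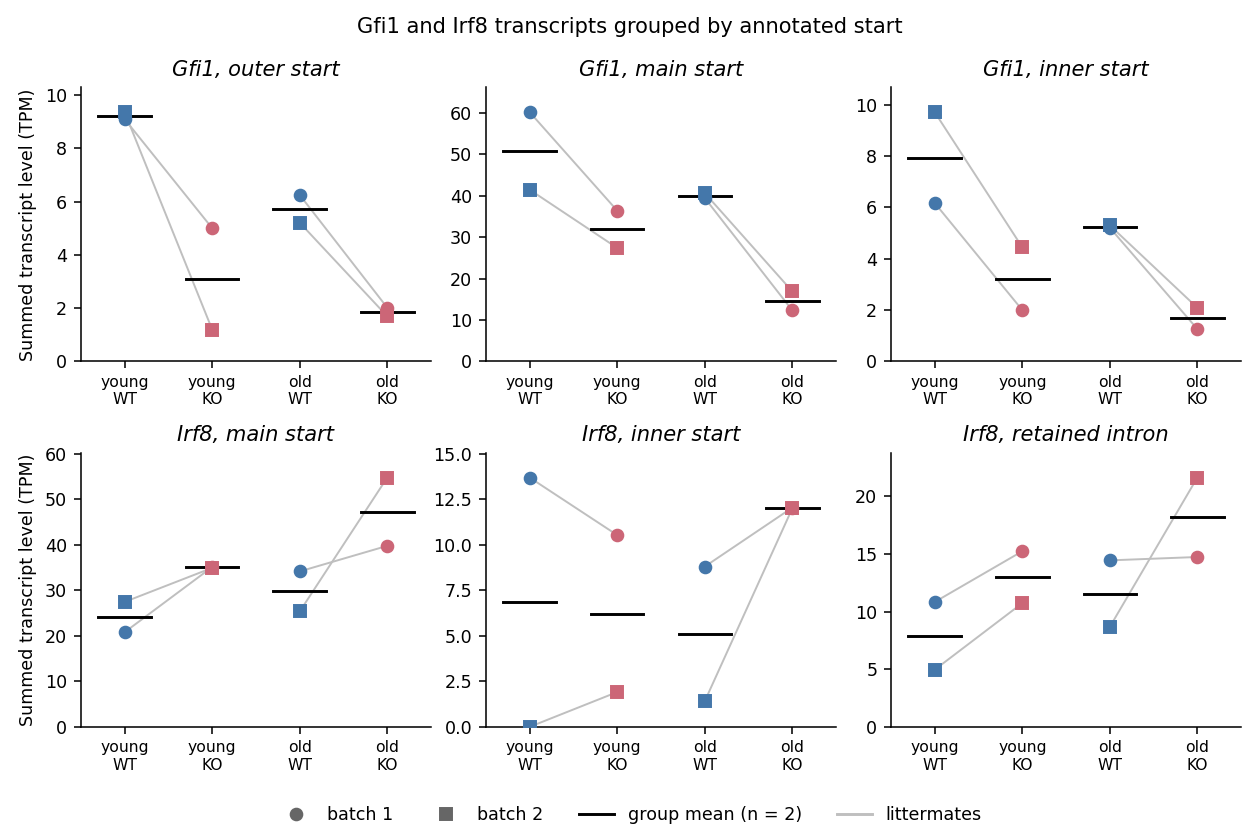
Summed TPM (vertical axis from 0) of the Gfi1 transcripts from the outer, main and inner annotated start, and of the Irf8 transcripts from the main start, the inner start and the retained-intron transcript, by group (horizontal axis); circles are batch 1, squares batch 2, bars group means of 2 mice. KO lay below WT at all 3 Gfi1 starts, and above WT at the main Irf8 start (34.9 to 54.7 against 20.8 to 34.1 TPM).

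The bases before the starts of the 2 genes that passed, and of Cebpa, are shown because they are where these transcripts begin and where such factors can bind. They come from RefSeq (GRCm38.p6), which held windows for 5 of the 8 genes. All are written 5′ to 3′ toward the start on the gene's own strand. The motifs searched on both strands were the C/EBP half-site pair TTGCNNAA, the PU.1 site GAGGAA, the Gfi1 core AAATC, the TATA box TATAAA and the CCAAT box, and matches are in capitals (a match on the other strand reads as its complement, GATTT or ATTGG). The windows are chr5:107725806-107725954 for the main Gfi1 start (149 bases, up to the first exon of the outer transcript), chr5:107724344-107724593 for the inner Gfi1 start, chr8:120736108-120736357 for Irf8 and chr7:35119043-35119292 for Cebpa. The Gfi1 windows are on the minus strand and the others on the plus strand.
Gfi1 main start: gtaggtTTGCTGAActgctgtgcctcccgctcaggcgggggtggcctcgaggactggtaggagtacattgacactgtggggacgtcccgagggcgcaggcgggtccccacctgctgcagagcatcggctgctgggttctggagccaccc
Gfi1 inner start: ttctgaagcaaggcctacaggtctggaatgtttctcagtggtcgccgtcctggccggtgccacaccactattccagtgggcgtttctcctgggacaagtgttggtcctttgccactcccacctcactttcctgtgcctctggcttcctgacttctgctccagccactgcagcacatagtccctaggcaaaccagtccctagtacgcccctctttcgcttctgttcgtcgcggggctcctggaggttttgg
Irf8 main start: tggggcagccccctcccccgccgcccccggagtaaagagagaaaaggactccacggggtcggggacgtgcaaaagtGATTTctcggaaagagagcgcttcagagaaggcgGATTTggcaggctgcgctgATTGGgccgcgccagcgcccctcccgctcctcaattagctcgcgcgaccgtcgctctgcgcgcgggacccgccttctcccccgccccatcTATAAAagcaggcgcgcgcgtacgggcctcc
Cebpa: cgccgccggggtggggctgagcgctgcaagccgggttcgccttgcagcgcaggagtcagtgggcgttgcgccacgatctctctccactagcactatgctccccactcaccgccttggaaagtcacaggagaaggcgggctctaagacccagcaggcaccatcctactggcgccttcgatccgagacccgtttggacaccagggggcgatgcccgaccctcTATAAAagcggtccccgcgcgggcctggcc

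Before the main Gfi1 start, the C/EBP pair is matched once, as TTGCTGAA, with its first base 143 bases before the start. Such a match was present in 9.6% of 32851 RefSeq windows of 250 bases. None of the 5 motifs was matched before the inner start. Before Irf8, the Gfi1 core is matched on the other strand at 174 and 140 bases before the start, and the core occurs in 32.7% of all windows. TATAAA is matched 31 bases before the Irf8 start. It is also matched 30 bases before the end of the Cebpa window, which ends at the start of the minor transcript Cebpa-202, while the main transcript Cebpa-201 starts further on, at 35119303. TATAAA occurs in 12.4% of all windows. The CCAAT box is matched on the other strand 121 bases before the Irf8 start and occurs in 33.8% of all windows. A match of letters does not show binding, and no binding was measured.

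The downstream and neighbouring genes of this circuit were followed through lists chosen by function. Among 14 genes known as repressed by Gfi1, a list that includes Irf8, 2 rose in KO cells and 2 fell, and the median log2 fold change was -0.33, against 0.10 over all genes. Of all genes tested, 9.98% passed in this comparison. Of the 14, 9 had an unadjusted p under 0.05 (7445 of all 25543 genes) and DESeq2 called 8 (5288 of all genes). Irf8 and Cdkn1a, a cell cycle inhibitor (log2 0.91, edgeR adjusted p = 0.0325), rose. Csf1, a macrophage growth factor (log2 -1.41, adjusted p = 0.0108), and Hoxa9, a progenitor homeobox factor (log2 -0.70, adjusted p = 0.0266), fell. Csf1 and Cdkn1a were named after their values were seen. Meis1 (-0.42), Bax (0.36) and E2f6 (-0.36) did not pass. In old mice edgeR called 0 of the 14 upward and 2 downward, where 0.65% of all genes tested passed. The 2 were Csf1 again and Egr1, an early growth response factor also named after its values were seen. There 10 of the 14 had an unadjusted p under 0.05 (5405 of all genes). DESeq2 called 8 of them (3238 of all genes), with Irf8 among those that rose. Over both ages, the called genes of this list moved in both directions. A link of these movements to the lower Gfi1 was not tested.

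**Figure D5:**
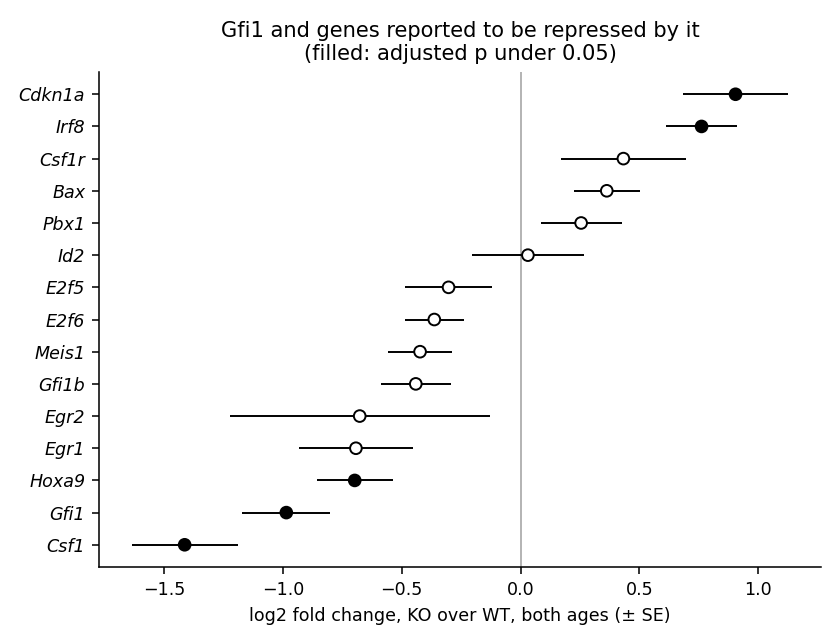
KO over WT log2 fold change over both ages (horizontal axis) with its SE (bars) of Gfi1 and of the 14 genes listed as repressed by it (vertical axis, ordered by value); filled points passed an adjusted p of 0.05. Csf1 and Hoxa9 lay to the left with Gfi1, and Irf8 (log2 0.76) and Cdkn1a (log2 0.91) to the right.

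The 8 genes listed under primary granules, only some of which C/EBPα and PU.1 are known to switch on, gave no call in edgeR for genotype over both ages (0 of 8, median log2 0.30). Of all genes tested, 9.98% passed there. Of the 8, 3 had an unadjusted p under 0.05 (7445 of all 25543 genes) and DESeq2 called 2 (5288 of all genes). Mpo had 1092 to 1987 TPM in KO and 815 to 2163 TPM in WT, and Srgn 956 to 1316 TPM in KO and 728 to 1076 TPM in WT (log2 0.53, edgeR adjusted p = 0.0546). Calr (log2 0.42, adjusted p = 0.0616) and Cd63 (log2 0.25, adjusted p = 0.391) did not pass either. In old mice 1 of the 8 rose, where 0.65% of all genes tested passed. It was Ctsg, the neutrophil protease cathepsin G, with 308 and 465 TPM in old KO against 87.9 and 119.7 TPM in old WT (log2 2.06, edgeR adjusted p = 0.0192; named after its values were seen). The median of the 8 there was 0.75, against 0.07 over all genes.

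Of 13 secondary granule and late neutrophil genes, only some of which C/EBPε is known to drive, 0 rose and 1 fell. Of all genes tested, 9.98% passed in either direction. The median log2 fold change of the 13 was -0.58. The one that fell was the integrin gene Itgam (log2 -0.68, edgeR adjusted p = 0.039; named after its values were seen). Ngp ran from 0.2 TPM in old WT replicate 1 to 644 TPM in young KO replicate 1, with a log2 fold change of -0.58 ± 1.18 (SE; adjusted p = 0.776). S100a9 (-0.30), S100a8 (-0.49) and Ltf (-1.36) had SEs of 0.893 to 0.947. None of these 4 passed, and mice of 1 group lay far apart: Ngp had 0.2 and 420.1 TPM in the 2 old WT libraries.

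Of 16 monocyte, macrophage and dendritic genes, only some of which PU.1 and Irf8 are known to activate, 1 rose and 0 fell. The median of the 16 was 0.16, and 9.98% of all genes tested passed in either direction. Ccr2, a chemokine receptor of monocytes, rose by log2 1.08 (edgeR adjusted p = 0.0161; named after its values were seen), with 18.9, 81.4, 39.9 and 22.2 TPM in old KO 1, old KO 2, young KO 1 and young KO 2 and 11.2 to 25.6 TPM in WT. The most abundant genes of the list, Cd74 (log2 0.29), Cst3 (0.42), Ly6c2 (-0.22) and Ctss (0.40), had adjusted p values of 0.116 to 0.836.

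Among 10 receptors for myeloid growth factors, 0 rose and 2 fell, with a median of -0.09, where 9.98% of all genes tested passed. Flt3, the receptor of early multipotent progenitors, had 95.2 to 265 TPM in KO and 212 to 480.1 TPM in WT (log2 -0.66, edgeR adjusted p = 0.0236). Kit, the stem cell factor receptor that also defines the LSK gate, had 63.4 to 161 TPM in KO (log2 -0.88, adjusted p = 0.0438). In WT it had 547 TPM in young WT replicate 1 alone and 133 to 219 TPM in the others, so the genotypes overlapped, and that library is the one that stood apart in its length slope. The granulocyte receptor gene Csf3r (log2 -0.42, adjusted p = 0.0919) and the GM-CSF receptor gene Csf2ra (log2 -0.19, adjusted p = 0.481) did not pass.

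Of the 13 other C/EBP-type and partner leucine-zipper genes, edgeR called 0 for genotype over both ages, with a median of -0.03. Of all genes tested, 9.98% passed. Of the 13, 2 had an unadjusted p under 0.05 (7445 of all 25543 genes) and DESeq2 called 1 (5288 of all genes). The log2 fold change was 0.16 for Atf4, 0.17 for Batf, -0.43 for Junb (edgeR adjusted p = 0.0839) and -0.03 for Ddit3. In old mice Fos, an immediate early gene, was lower in KO, with 3.65 and 5.45 TPM against 39.9 and 39.5 TPM in WT (log2 -2.92, edgeR adjusted p = 0.0141; named after its values were seen). It had 1.49 and 2.16 TPM in young WT and 2.03 and 2.92 TPM in young KO, so the 2 old WT libraries stood apart and old KO was above both young groups. Of 15 other ETS, IRF and Gfi genes, 0 rose and 1 fell over both ages, with a median of -0.38, where 9.98% of all genes tested passed. Ets1 fell by 1.23 on the log2 scale (edgeR adjusted p = 0.0125; named after its values were seen). Irf1 (-0.09), Elf1 (-0.28), Irf9 (-0.16) and Fli1 (-0.38, adjusted p = 0.0637) did not pass. Gfi1b, the paralog of Gfi1 that acts in erythroid and platelet lineages, stood at -0.44 (adjusted p = 0.0768; named after its values were seen).

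Of 30 other regulators of the myeloid choice, 0 rose and 5 fell, with a median of -0.34, where 9.98% of all genes tested passed. The 5 were Myb (log2 -0.49), Gata2 (-0.61), Maf (-1.39), Stat3 (-0.64) and Trib2 (-2.16), with edgeR adjusted p values of 0.00455 to 0.0427. All but Myb were named after their values were seen. Trib2, a pseudokinase known to target C/EBPα protein for degradation, had 0.8 to 2.1 TPM in KO and 4.1 to 7.7 TPM in WT. Myc (-0.13), Tcf3 (-0.34, adjusted p = 0.0694) and Cbfb (-0.15) did not pass.

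Old and young cells were compared over both genotypes in the same lists, where 13.9% of all genes passed. Among the 14 Gfi1-repressed genes Cdkn1a rose (log2 1.32) and Hoxa9 (-0.62) and E2f6 (-0.62) fell. Cd74, the MHC class II invariant chain, rose (1.35) among the 16 monocyte and dendritic genes, and Flt3 (-1.0) and Kit (-0.93) fell among the 10 receptors. These 6 genes had edgeR adjusted p values of 0.00964 to 0.0412. edgeR called 0 of the 8 primary granule genes (2 at an unadjusted p under 0.05, as had 9521 of all 25543 genes). DESeq2 called 0 of these 8 (6665 of all genes). Of the 13 late neutrophil genes 1 fell, the gelatinase gene Mmp9. Of the 13 leucine-zipper genes Fos rose (log2 2.65, edgeR adjusted p = 0.0373; in WT mice alone 4.52, adjusted p = 0.00285) and 0 fell. Of the 30 other regulators 2 rose (Zbtb16 and Maf) and 5 fell (Myb, Rara, Ikzf1, Tcf3 and Kdm1a), and of the 15 ETS, IRF and Gfi genes 0 rose and 3 fell (Ets1, Etv6 and Irf5). Of the genes named here from Mmp9 on, all but Myb and Tcf3 were named after their values were seen.

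The genes whose profile over the 8 libraries was most like that of each member were found by the root mean square difference of log2(TPM + 1) values, each centred on its gene's mean, among 9832 protein-coding genes. Nearest to Gfi1 were Btg2 (0.122), an antiproliferative gene, Gsn (0.164), which encodes the actin-severing protein gelsolin, and Smox (0.174), which encodes spermine oxidase. The profile of Gfi1 itself departed from flat by 0.708. Btg2 had 8.23, 10.1, 16.9 and 19.1 TPM in old KO 1, old KO 2, young KO 1 and young KO 2, and 27.6, 24.9, 28.0 and 32.1 TPM in the WT libraries in the same order.

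Nearest to Irf8 were Ube2c (0.113), a gene of mitotic exit, Btnl9 (0.123) and the ribosomal protein gene Rpl27 (0.157), where Irf8 departed from flat by 0.433. Nearest to Cebpa were Pabpc4, Tuba1c and Ssbp4 (0.2 to 0.207, against 0.521 for Cebpa itself). Nearest to Cebpb were Gm10638, Zfp580 and Fbxl15 (0.15 to 0.2, against 0.48), and nearest to Cebpd were Rgs10, Gadd45b and Khdrbs2 (0.206 to 0.265, against 0.524). Cebpg was nearest to the tRNA synthetase genes Sars (0.074) and Fars2 (0.082) and to Panx1 (0.077), and Spi1, the flattest of the profiles (0.163), to Snrpa, Psmd4 and Eif4a3 (0.042 to 0.055). Profiles share libraries, depth and batch, so likeness here describes these 8 libraries only.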

How the data were processed

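The authors deposited kallisto tables for each library, with estimated counts, TPM and effective length per transcript, per the file headers. The submitters' processing notes also name mm10 and DESeq2, without versions. RNA had been amplified with the SMART-Seq v4 kit, per the labels. Transcripts were matched by identifier to GENCODE vM21 (114200 of 115088, and the other 888 held 0.259% to 0.47% of counts), and the deposited estimated counts of a gene's transcripts were added up, then rounded. TPM were summed unrounded and are the levels given.

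Genes were kept by filterByExpr (25543), scaled by TMM and tested by quasi-likelihood in edgeR 4.0.16 (R 4.3.3), adjusted by Benjamini and Hochberg over all 25543. Contrasts over both ages or genotypes used additive terms for genotype, age and batch, with 4 residual degrees of freedom. All other contrasts used a term for each group plus batch, with 3. The labels pair the mice by litter. Littermates' deviations from group means had correlations across 16564 genes of 0.08 in the old and 0.24 in the young litters, and litter was also fitted as a replicate block. Within an age the litters are also the batches, so these correlations cannot tell litter from batch. Alternatives used DESeq2 1.42.0, limma 3.58.1, RLE factors, no filter, no batch term, a length-trend offset, fits within batches and fits without single libraries or litter 1. Promoter windows came from RefSeq (GRCm38.p6).

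The 8 genes and all lists were chosen with earlier results of these data known. Besides the 8, the text names the 4 most abundant genes of each list and the 3 genes most like each member with at least 5 TPM, and genes outside this rule are marked.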

Additional observations from a re-analysis of the deposited data

Results flagged for a closer look

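Cebpg was lower in the KO mouse than in its WT littermate in both old litters (ratios of 0.739 and 0.982) and higher in both young litters (1.13 and 1.16). The genotype by age interaction was -0.21 on the log2 scale (edgeR adjusted p = 1), so this opposite movement of the 2 ages did not pass the test of the difference itself. No level of the 8 genes stood apart from the other libraries of its genotype or age by Dixon's test in any of 32 groups of 4 libraries.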

How the results depend on the processing

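Of 992 values of the 8 genes under alternatives, 863 kept their direction and their side of the threshold, 30 lost a call, 40 gained one and 59 changed sign. Gfi1 was lower in KO over both ages under all 19 alternatives (log2 -1.21 to -0.83, called in 16) and Irf8 higher in all 19 (0.54 to 0.88, called in 10). The cause of the changes below was not tested.

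For KO against WT over both ages (2 of 8 called), the number called was 3 with DESeq2, 3 with no filter, 3 within batch 2, 1 with no batch term, 1 with limma on log2(TPM + 1), 1 with limma on log2(TPM + 0.1), 1 within batch 1 and 0 without litter 1, and 0 to 3 without single libraries. For old against young over both genotypes (1 called), it was 3 with DESeq2, 4 with no filter, 3 with the length correction, 2 within batch 1, 0 with no batch term, 0 with either limma fit and 0 without litter 1, and 0 to 2 without single libraries. For KO against WT in old mice (1 called), it was 3 with DESeq2, 3 with no filter, 2 with the length correction, 2 with only the 4 libraries compared, 0 with no batch term, 0 without litter 1 and 0 to 3 without single libraries. For old against young in KO mice (0 called), it was 2 with DESeq2, 2 with no filter, 1 with the length correction, 4 with only the 4 libraries compared, and 0 to 2 without single libraries.

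With litter as a replicate block, KO against WT in old mice had 0 of the 8 called (Gfi1 -1.29), and no call of a member changed in the other genotype comparisons or the interaction. The comparisons of age have no such fit, since each litter is of 1 age. The block moved the count over all genes for KO against WT at both ages from 2548 to 1162. Over all alternatives that count ran from 138 to 6824, and the count for old against young (3563) from 20 to 6665. The other counts ran from 0 to 956 (KO against WT in young mice, 16), 0 to 3238 (in old mice, 166), 2 to 1107 (age in WT, 22), 0 to 4761 (age in KO, 22) and 0 to 75 (interaction, 1). The median log2 fold change of all genes, 0.10 for genotype and 0.15 for age, became -0.05 and -0.15 with the length correction and 0.28 and 0.55 with no filter.

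None of the values that changed sign was past the threshold in either fit. For KO against WT over both ages, Cebpb was 0.06 within batch 2, Cebpd -0.13 with the length correction and -0.14 within batch 1, and Cebpg 0.01 without litter 1. For old against young over both genotypes, Cebpb was -0.02 with no batch term, -0.23 with the length correction and -0.13 within batch 1, and Spi1 0.09 without litter 1 and 0.09 within batch 2. In WT mice with age, Cebpb was -0.08 with no batch term and -0.17 with the length correction, Cebpd -0.01 with the length correction and Spi1 0.05 without litter 1. In KO mice with age, Cebpb was -0.03 with no filter and -0.28 with the length correction, and Spi1 -0.06 and -0.21. For the interaction, Cebpb was -0.06 with no filter, -0.11 with the length correction, -0.10 with limma on log2(TPM + 1) and -0.10 on log2(TPM + 0.1), and Cebpe -0.44 without litter 1.

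Without single libraries, signs also changed in these ranges. For KO against WT over both ages they were -0.21 to 0.05 for Cebpb, -0.08 to 0.43 for Cebpd and -0.12 to 0.04 for Cebpg. In young mice they were -0.29 to 0.21 for Cebpb, -0.55 to 0.29 for Cebpd and -0.08 to 0.30 for Cebpg, and in old mice -0.21 to 0.06 for Cebpb and -1.37 to 1.15 for Cebpe. For age over both genotypes they were -0.08 to 0.14 for Cebpb and -0.14 to 0.04 for Spi1, in WT -0.17 to 0.30 for Cebpb, -0.05 to 0.76 for Cebpd and -0.28 to 0.05 for Spi1, and in KO -0.08 to 0.40 for Cebpa, -0.06 to 0.16 for Cebpb and -0.06 to 0.08 for Spi1. For the interaction they were -0.25 to 0.14 for Cebpb, -0.50 to 2.02 for Cebpe and -0.09 to 0.23 for Spi1. Where a fit left 1 mouse in a group, its spread was taken from the other groups. Cebpe rested on the fewest estimated counts, 69 to 543 a library, and 2 mice a group limit every comparison.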
